A study of Drosophila melanogaster with 2 samples.

Results

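Of the 2658 Taf1 peaks on chromosome arms in the larger pooled list, 394 had their summit in an intron of a protein-coding gene close to, but not at, an annotated start of transcription. That was 14.8% of the peaks (95% interval 13.5 to 16.2). They were chosen by position and not by their signal: the summit lay in no annotated exon, and more than 500 and up to 2000 bp from the nearest protein-coding transcription start site on either strand. The other peaks used for comparison were 1405 promoter peaks, with a summit within 500 bp of a start, 473 intronic peaks farther than 2000 bp from a start, and 283 intergenic peaks. Intron sequence that meets the same positional rule was sampled as well, at every 200 bp along the arms, which gave 50994 tiled intron windows. The 394 peaks are called near-start intronic peaks here.

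The study mapped Taf1 by chromatin immunoprecipitation with sequencing (ChIP-seq) in whole embryos of Drosophila melanogaster collected over 0 to 24 h of development. The flies carried a transgene for a fusion of Taf1 with enhanced green fluorescent protein (Taf1-eGFP), and an antibody to GFP pulled down the chromatin. There was 1 group with 2 biological replicates, and there was no comparison of genotypes, treatments or ages. The tagged protein stands for Taf1 here, every stage and tissue of the embryo is mixed, and binding in few cells cannot be told apart from weak binding in many cells.

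Taf1 is the scaffold subunit of TFIID, a general factor that recognises core promoters and helps to place RNA polymerase II at transcription start sites. It carries histone-binding bromodomains and contacts the initiator region of the core promoter. Introns close to a start site are known in flies as places where enhancers and alternative promoters lie, and a peak there can fall on either of these or on neither.

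Windows reaching 100 bp to either side of the summit, from 3 strong members, show the range of sequence under these peaks. They are from release 6 of the genome (dm6), read from the RefSeq assembly, 5′ to 3′ on the strand of the gene named. Capitals mark the 6-base word CACTGT, described further on, and the GA-repeat element GAGAG, each on either strand. The summit in Trl (chr3L:14759406-14759606, minus strand, intron 2), the gene for GAGA factor, held neither. CG3726 (chrX:5918810-5919010, plus strand, intron 1) held 6 copies of GAGAG, most of them overlapping, at its upstream end. MYPT-75D (chr3L:18640604-18640804, plus strand, in an intron upstream of another start of the same gene) held 1 copy of CACTGT and 2 of GAGAG.
Trl: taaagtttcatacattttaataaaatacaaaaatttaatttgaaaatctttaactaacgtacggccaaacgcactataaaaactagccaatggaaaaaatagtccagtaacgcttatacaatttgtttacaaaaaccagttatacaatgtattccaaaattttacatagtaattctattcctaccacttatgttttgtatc
CG3726: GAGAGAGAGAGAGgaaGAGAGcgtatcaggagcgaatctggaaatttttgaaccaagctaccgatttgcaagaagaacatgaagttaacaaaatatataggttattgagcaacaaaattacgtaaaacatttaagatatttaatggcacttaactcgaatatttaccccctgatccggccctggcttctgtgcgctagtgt
MYPT-75D: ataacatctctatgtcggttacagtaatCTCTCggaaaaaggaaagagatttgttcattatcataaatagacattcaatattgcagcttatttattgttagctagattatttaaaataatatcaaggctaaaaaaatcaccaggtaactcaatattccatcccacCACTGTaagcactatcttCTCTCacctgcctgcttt

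Next come 9 strong members with the 7-base word CACTGTA within 100 bp of the summit, aligned because this word had a regular place relative to the summit. Each run has 23 bases, is written on the strand that reads CACTGTA, which the capitals mark, and lies wholly in an intron. The runs are at chr3L:18640761-18640783 (MYPT-75D, plus strand), chrX:4325057-4325079 (norpA, plus), chr2L:3655715-3655737 (for, minus), chr3R:11649703-11649725 (Csk, plus), chr3R:30781841-30781863 (zfh1, plus), chr2L:16500701-16500723 (Tpr2, plus), chrX:11351469-11351491 (CG1737, minus), chrX:6366562-6366584 (Marf, plus) and chr3R:28905068-28905090 (Doa, plus).
MYPT-75D: catcccacCACTGTAagcactat
norpA: aaaggcccCACTGTActtgagat
for: gggggtccCACTGTAttcgactc
Csk: tttgcggcCACTGTAtcgtgtga
zfh1: ccagttatCACTGTAacgtttct
Tpr2: gcacgctaCACTGTAccaaagcg
CG1737: ccagggccCACTGTAttccactg
Marf: ctggtgcgCACTGTAttcaatcg
Doa: cgaggtttCACTGTActggcact
The summit lay 53 to 87 bp away from the word in these runs. On the genome's plus strand the word was to the right of the summit in the 7 runs written on the plus strand, and to the left in the 2 runs written on the minus strand. Read along the word, then, each of the 9 summits was on its 5′ side.

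The near-start intronic peaks lay mostly in first introns and on the near side of the distance range. A total of 241 of the 394 (61.2%, interval 56.2 to 66) were in the first intron downstream of the nearest start, against 46.8% of the tiled intron windows. Another 109 (27.7%) lay upstream of a start of the gene that hosted them, so between alternative starts of that gene, against 18.8% of tiled windows. Later introns downstream of the start held 19 peaks (4.82%), against 15% of tiled windows. This later-intron class also takes in positions past the end of every transcript from that start. Only 21 lay upstream and 4 downstream of a start of a gene that did not host them, which was 5.33% and 1.02% of the peaks, against 14% and 5.37% of tiled windows. In 369 peaks (93.7%) the nearest start belonged to a host gene, against 80.7% of tiled windows.

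Per 1000 tiled windows there were 7.73 near-start intronic peaks in all. The number was 11.4 upstream of another start of the host gene, 10.1 in the first intron and 2.48 in the later-intron class. It was 2.95 upstream of a start of a different gene and 1.46 downstream of one. By distance, 209 of the 394 (53%) lay up to 1000 bp from the start, 110 (27.9%) lay beyond that and up to 1500 bp away, and 75 (19%) lay farther, up to 2000 bp. The tiled windows fell 38.5%, 33.1% and 28.5% into these ranges. The median distance was 980 bp (quartiles 680 and 1371.2), against 1168 bp in tiled windows. In gene orientation, 264 peaks (67%) were downstream of the start, close to the 67.2% of tiled windows. The bin just upstream of the promoter window was the densest, with 57 peaks between 500 and 750 bp upstream, or 15.8 per 1000 tiled windows, against 17 peaks and 5.42 in the next bin out. The first introns around these summits had a median length of 3376 bp (384 to 47211), close to the 3366 bp around tiled windows. A peak is counted once and a tiled window is a fixed position, so these are shares of sequence and were not tested.

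**Figure D1:**
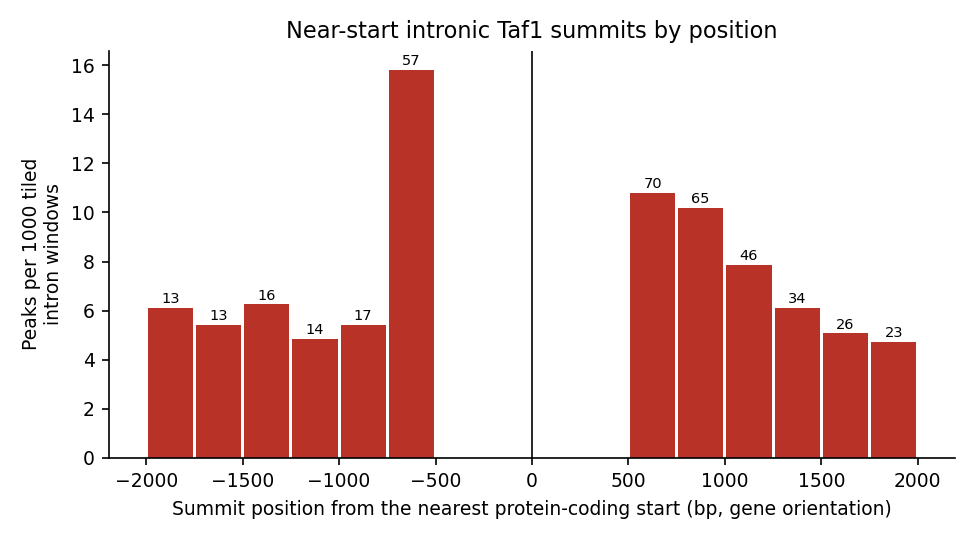
Near-start intronic peaks per 1000 tiled intron windows (vertical axis) by summit position from the nearest protein-coding start in bp, in gene orientation with upstream to the left; numbers above the bars are peaks, and the middle is empty because the rule leaves out 500 bp on either side. The bar from 500 to 750 bp upstream holds 57 peaks, and on the downstream side the bars descend from 70 peaks to 23.

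By arm, 96 of the peaks were on 3R, 92 on X, 82 on 3L, 63 on 2R, 60 on 2L, 1 on the fourth chromosome and 0 on Y. Per 1000 tiled windows X had 9.13, 3R 8.36, 3L 8.16, 2L 6.67 and 2R 6.46.

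The strongest members were among the strongest Taf1 peaks anywhere. In the pooled list 2 of the top 10 peaks, 4 of the top 20, 19 of the top 100 and 83 of the top 500 were near-start intronic. That was 20%, 20%, 19% and 16.6%, with intervals that each held the 14.8% of the class among all peaks. Promoter peaks held 8, 15, 64 and 310 of these places. The signal is the authors' own value for a peak, from their peak caller, and its scale is not stated. The peak in CG11050 reached 674.6 in replicate 1 and 846.3 in replicate 2, and 1505.6 in the pooled list, where it ranked 1. Its summit lay 1031 bp downstream of the start, in an intron of 140 bp. Adf1, which encodes a sequence-specific transcription factor with a MADF domain, had 427.5 in replicate 1 and 593.7 in replicate 2, and 979.8 pooled, in the first intron at 769 bp from the start. Trl encodes GAGA factor, the trithorax-group protein that binds GA repeats, and its peak had 386.1 in replicate 1 and 464.4 in replicate 2, and 856.9 pooled, at 1543 bp. The window around the Trl summit, printed above, held no GAGAG. CG3726 had 341.4 in replicate 1 and 493.7 in replicate 2, and 834.7 pooled, at 1750 bp in a first intron of 20941 bp.

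These 4 peaks were higher in replicate 2 than in replicate 1, as were 17 of the 19 among the 20 strongest that had a peak in both relaxed replicate lists. This was not particular to members. The strong promoter peak of CG14100 had 508.5 in replicate 1 and 797.0 in replicate 2, though that of CG1635 had 386.2 and 336.1. CG9663 had 291.1 in replicate 1 and 400.7 in replicate 2, and 713.9 pooled, at 935 bp. MYPT-75D, a regulatory subunit of myosin phosphatase, had 281.5 in replicate 1 and 433.6 in replicate 2, and 698.3 pooled, 687 bp upstream of a start of the same gene. CG32772 had 263.4 in replicate 1 and 367.0 in replicate 2, at 1261 bp. The summit of HmgZ, a high-mobility-group DNA-binding protein, lay within the overlapping neighbour HmgD as well and had 237.7 in replicate 1 and 373.7 in replicate 2. The peak in norpA, the phospholipase C of phototransduction, had 231.1 in replicate 1 and 377.3 in replicate 2, at 1372 bp.

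The next members of the 20 strongest had pooled signals of 555.2 to 337.1. The peak in CG9837 had 267.1 in replicate 1 and 284.1 in replicate 2, at 1855 bp upstream of a start. NFAT, the fly member of the NFAT transcription factor family, had 269.9 in replicate 1 and 258.6 in replicate 2, and chif, which encodes the Dbf4-related protein Chiffon, had 283.2 and 242.8 in replicates 1 and 2. NFAT and chif were the only ones of these 19 with a lower value in replicate 2. The peak in for, the cGMP-dependent protein kinase Foraging, had 198.0 in replicate 1 and 307.4 in replicate 2. Fem-1 had 190.8 and 252.0 in replicates 1 and 2, and Csk, the C-terminal Src kinase, had 190.1 and 215.4. The peak nearest the start of mlt had 167.1 and 225.9 and lay in an intron of the potassium channel gene KCNQ. CG31612 had 174.3 and 218.6, and CG32425 had 140.1 and 206.0. The peak in hts, an adducin-like protein of the membrane skeleton, stood apart, with 216.3 in replicate 1, 444.9 in the pooled list and no overlapping peak in the relaxed list of replicate 2.

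Of these 20 peaks, 13 lay downstream of the nearest start and 11 were in its first intron. The commonest peak width in the list was 316 bp, and 18 of the 20 were narrower, against 75 of all 394. A pooled signal above 500 was reached by 14 members.

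Taken over all members, the signal was close to that of promoter peaks. The median pooled signal was 93.4 in near-start intronic peaks (interval 88.2 to 98.7, quartiles 70.1 and 146, range 2.61 to 1505.6), against 95 in promoter peaks (91.8 to 98.3), 80.2 in far intronic peaks (75.1 to 85.7) and 83.8 in intergenic peaks. Over all pooled peaks it was 90.7. In replicate 1 the members with a peak in the relaxed list (392) had a median of 47.5, and in replicate 2 (377) a median of 53.2. In 21 members the pooled signal was below that of both replicates, and all 21 overlapped another pooled peak. In a replicate's relaxed list these 21 matched a peak that another pooled peak also matched, as did 43 members in all and 0 of the 20 strongest, so their replicate values are shared with that neighbour. An example is a peak in dlg1 with 13.1 pooled: its values of 63.9 in replicate 1 and 96.4 in replicate 2 are also those of a promoter peak of 160.3 beside it.

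**Figure D2:**
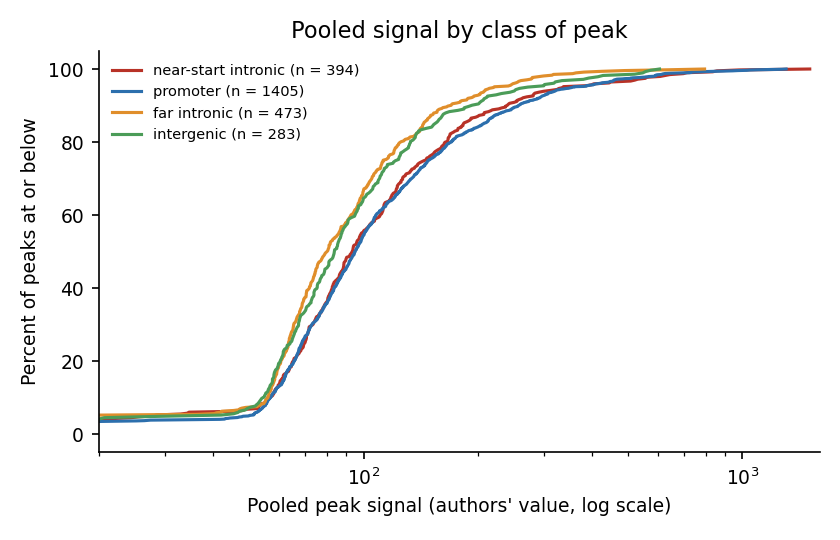
Cumulative percent of peaks (vertical axis) at or below a pooled signal (horizontal axis, log scale, authors' value, drawn from 20) for near-start intronic, promoter, far intronic and intergenic peaks. The curves of near-start intronic peaks (median 93.4) and promoter peaks (median 95) run together, and those of far intronic peaks (median 80.2) and intergenic peaks (83.8) lie to their left.

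The near-start intronic peaks were recovered in the replicates about as often as promoter peaks. A total of 210 of 394 (53.3%, interval 48.2 to 58.3) overlapped a peak of the thresholded list of replicate 1, against 48.3% of all pooled peaks. For replicate 2 it was 279 (70.8%), against 69.4% of all pooled peaks. Both lists held 181 (45.9%, interval 40.9 to 51), against 40.5% of all pooled peaks, 43.4% of promoter peaks and 31.9% of far intronic peaks (27.7 to 36.3). Neither list held 86 (21.8%), against 22.8% of all pooled peaks. The conservative pooled list held 323 (82%, interval 77.8 to 85.6), against 77.7% of all pooled peaks and 72.5% of far intronic peaks.

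Recovery went with signal. Of the 98 strongest members, with signals of 146.8 to 1505.6, 94 were in both replicate lists and all 98 were in the conservative list. Of the 98 weakest, with signals of 2.6 to 69.7, 9 were in both lists and 57 in neither. Overlap of any 1 bp counted as shared, so a weak member beside a stronger peak can count through that neighbour's replicate peak. A trbl peak of 25.5 pooled was in the list of replicate 2, with the same replicate values as a trbl peak of 118.7. With summits required within 100 bp of each other, 43.9% of members were in both lists. The pooled list contains the reads of both replicates, so these shares describe how firmly a peak was called and are not an independent repeat.

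At the same peak, replicate 2 over replicate 1 gave a median log2 ratio of 0.10 in 375 members (interval 0.05 to 0.17, SD 0.59, range −1.86 to 2.10), against 0.16 over all pooled peaks. Replicate 2 was higher in 216 of the 375 (57.6%), against 61.6% of all pooled peaks. Over the 20 strongest the median was 0.43. The extremes were weaker peaks. PGRP-LB, a peptidoglycan recognition protein of the immune response, had 112.2 in replicate 2 and 26.2 in replicate 1. An intronic peak of Diap1, the inhibitor of caspases, had 38.2 in replicate 2 and 109.1 in replicate 1, a log2 ratio of −1.51, and a second peak in Diap1 had 13.9 in replicate 2 and 48.8 in replicate 1, a log2 ratio of −1.81. In all, 17 members lacked any peak in the relaxed list of replicate 2, the strongest after hts being pAbp with 241.1 pooled and 111.1 in replicate 1, and 2 lacked one in replicate 1.

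**Figure D3:**
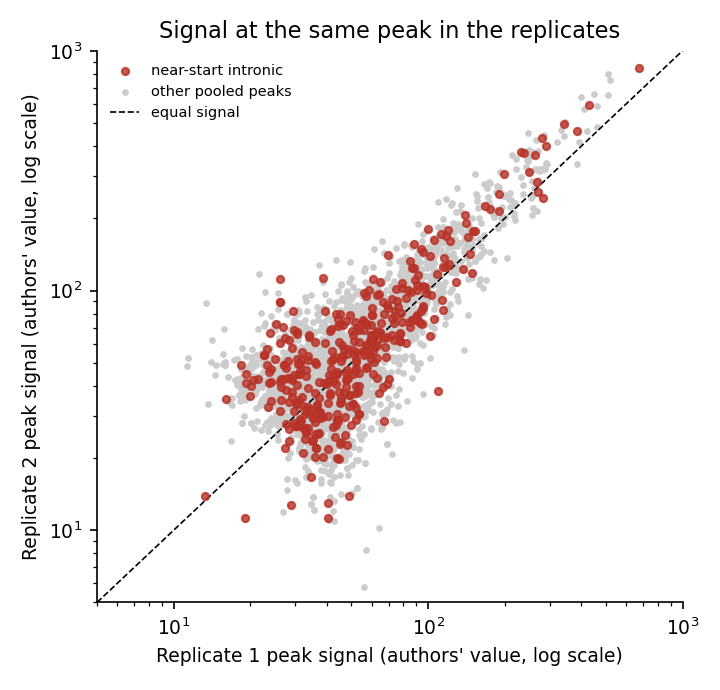
Signal in replicate 2 (vertical axis) against replicate 1 (horizontal axis), both on log scales in the authors' units, for near-start intronic peaks (red) and the other pooled peaks (grey) that had a peak in both relaxed lists; the dashed line marks equal signal. Most of the strongest members lie above the line, with CG11050 at 674.6 in replicate 1 and 846.3 in replicate 2 at the top right, and the spread widens toward low signal.

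The peaks fell in 344 host genes, which was 2.46% of the 13968 protein-coding genes and 4.87% of the 7057 genes with intron sequence that met the positional rule. Of the hosts, 289 held 1 peak, 35 held 2 and 20 held 3 or more, and 32 peaks lay in introns of several overlapping genes. CHES-1-like, a forkhead-family transcription factor gene, held 5 peaks, with signals of 239.8, 150.8, 132.8, 113.2 and 80.4. Tlk, the Tousled-like kinase, held 4, with 253.8, 98.1, 86.3 and 80.3, and NFAT held 4 with a summed signal of 795.1. The septate-junction scaffold gene dlg1 and the genes CG1677, CG32264 and CG42258 also held 4 each. Hosts with 3 peaks were CG43658, CG9837, CrebB, HmgD, HmgZ, Moe, Prps, Shrm, aux, fru, larp, ps and shn, of which HmgD and HmgZ shared peaks. Their roles range from a CREB-family activator (CrebB) and a moesin that ties actin to the membrane (Moe) to the sex-determination and behaviour gene fru.

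The lists of chromatin factors, of insulator and promoter binding factors, and of embryonic patterning factors held 6 peaks together, of very different strength. Among 43 annotated genes for chromatin and trithorax or Polycomb factors, 3 were hosts (6.98%, interval 1.46 to 19.1), against 2.46% of all protein-coding genes and 4.87% of those with a window, with 4 peaks. Besides the peak named above, Trl held one of 146.9. An intronic peak of 100.3 was in ph-p, a subunit of the Polycomb complex PRC1. One of 70.8 was in brm, the ATPase of the Brahma remodeller, and its nearest start was that of CG17028. Among 30 insulator and promoter binding factors the host was Adf1 alone (3.33%, interval 0.0844 to 17.2). That list had 7.69 peaks per 1000 tiled windows, close to the 7.73 over all windows. Of 49 embryonic patterning transcription factors 1 was a host, the Hox gene Abd-B with a signal of 58.4, or 1.8 peaks per 1000 tiled windows over the list, against 7.73 over all windows.

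Signalling genes held peaks of moderate strength. Of 61 annotated, 9 were hosts (14.8%, interval 6.98 to 26.2), against 2.46% of all protein-coding genes and 4.87% of those with a window. They held 14 peaks, 4 of them in Tlk, or 19.4 per 1000 tiled windows, against 7.73 over all windows. The hosts included drk (168.8), the adaptor that links receptor tyrosine kinases to Ras, InR (161.1), the insulin receptor, and sty (149.2), the antagonist Sprouty. The peak in drk lay 878 bp upstream of the start of its neighbour mars. The other hosts were Tlk, Mad (117.8), the effector of Dpp signalling, Socs36E (102.4), Egfr (88.5, nearest to the start of CG30286), Stat92E (88.1), the effector of JAK signalling, and aop (85.1), the ETS repressor Yan. In Stat92E the replicates were 26.2 in replicate 1 and 60.4 in replicate 2, and in drk they were 72.0 and 92.3.

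Among 43 cytoskeleton and adhesion genes 6 were hosts (14%, interval 5.3 to 27.9). The share was 2.46% of all protein-coding genes and 4.87% of those with a window. The list had 16 peaks per 1000 tiled windows, against 7.73 over all windows. The highest was tsr, the actin-severing cofilin, with 312.5 pooled, 143.5 in replicate 1 and 167.0 in replicate 2. Next came jar, the unconventional Myosin VI (184.4), dlg1 (172.9) and Msp300, a nesprin that anchors nuclei (163.4).

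Among 38 RNA-binding and translation genes 7 were hosts (18.4%, interval 7.74 to 34.3). The share was 2.46% of all protein-coding genes and 4.87% of those with a window. The list had 13.1 peaks per 1000 tiled windows, against 7.73 over all windows. The strongest were brat, a translational repressor (283.5), pAbp, the poly(A)-binding protein (241.1), larp, a La-related protein (189.2), and elav, the neuronal RNA-binding protein (183.1). In elav the signal was 105.3 in replicate 1 and 76.3 in replicate 2, at 599 bp from the start. It was the single host among 37 neuronal and glial genes (2.7%, interval 0.0684 to 14.2). That list had 1.96 peaks per 1000 tiled windows, against 7.73 over all windows.

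Of 31 cell cycle and growth genes 3 were hosts (9.68%, interval 2.04 to 25.8). The share was 2.46% of all protein-coding genes and 4.87% of those with a window. The list had 11.7 peaks per 1000 tiled windows, against 7.73 over all windows. Its hosts were bun (126.8), Mnt, a partner of the Max network (103.7), and CycE, Cyclin E (11.2). The CycE peak shares its replicate 1 value of 44.4 with a promoter peak of 81.0 beside it and had no peak in replicate 2. Of 20 ecdysone response and nuclear receptor genes 2 were hosts (10%, interval 1.23 to 31.7), against the same 2.46% and 4.87%. These were br (134.1), the Broad transcription factors, and tai (86.4), the coactivator Taiman. This list had 5.01 peaks per 1000 tiled windows, below the 7.73 over all windows. The peak in br lay upstream of the start of its neighbour Mur2B. Each list's share is over its annotated genes, while the 4.87% is over genes with a window. Over list genes with a window the shares were 16.7% for signalling, 15% for cytoskeleton, 18.9% for RNA-binding and 13.6% for cell cycle genes. They were 8.11% for chromatin, 5% for insulator, 2.56% for patterning, 11.1% for ecdysone and 3.33% for neuronal genes. The lists are short and their intervals wide, and no list was tested.

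In this list, most near-start intronic peaks had no promoter peak at their start. In 72 of 394 (18.3%, interval 14.6 to 22.5) the nearest start also had a pooled summit within 500 bp, against 2278 of all 19275 distinct protein-coding starts (11.8%). The pooled ranked list, which goes on to weaker peaks, turned this round, with a promoter summit at 66.2% of the members' nearest starts, against 54.2% of all starts. Where both were present, the intronic peak was the stronger in 36 of 72. Counting any start of the nearest gene, 142 of 394 (36%, interval 31.3 to 41) had a promoter summit, against 13.2% of all protein-coding genes. The first share is over peaks, which had 319 distinct nearest genes, and the second is over genes. The number of starts per gene was not matched. Among the 20 strongest members 5 had a promoter summit at the nearest start. At CG9663 the promoter summit had 70.1 and the intronic one 713.9. CG11050 and Trl had none at the nearest start but had one at another start of the gene, and Adf1, CG3726 and norpA had none at any start. Only 7 members were within 500 bp of the start of a noncoding gene, and 1 summit lay in an annotated transposable element.

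Promoter elements of the housekeeping type were rare under these peaks. The DNA replication-related element TATCGATA, bound by Dref, was within 100 bp of the summit in 2 members (0.508%), against 6.98% of promoter peaks, 0.441% of tiled windows and 3.91% of all pooled peaks. Ohler motif 7, a core promoter element known by name from fly promoters, was in 6 members (1.52%), against 9.11% of promoter peaks, 1.46% of tiled windows and 5.57% of all pooled peaks. The core of Ohler motif 1, GGTCACAC, bound by M1BP, was in 0.508% of members, against 2.7% of promoter peaks and 0.269% of tiled windows. The BEAF-32 core CGATA, which lies within TATCGATA, was in 20.8% of members, 35.1% of promoter peaks and 21.3% of tiled windows. For these elements the near-start intronic windows were close to the tiled introns.

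Other elements had closer shares in the classes of peaks. TATAAA, the core of the TATA box, was in 148 members (37.6%, interval 32.8 to 42.6), against 38.9% of promoter peaks, 26% of tiled windows and 37.7% of all pooled peaks. Base composition moved with it: the mean GC content was 35.4% in members, 35.7% in promoter peaks and 39.6% in tiled windows, and its part in the TATAAA share was not tested. The initiator core TCAGT was in 35.8% of members, 31.1% of promoter peaks and 29% of tiled windows. GAGAG was in 90 members (22.8%, interval 18.8 to 27.3), against 21.3% of promoter peaks, 20.9% of tiled windows and 22.1% of all pooled peaks. Within 50 bp of the summit the order turned round, with GAGAG in 9.14% of members and 11.2% of tiled windows. GCCAT, the core of the Pleiohomeotic site, was in 21.1% of members, 24.3% of promoter peaks and 33.6% of tiled windows. Both strands were searched, and a match is a run of letters and not a shown site.

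**Figure D4:**
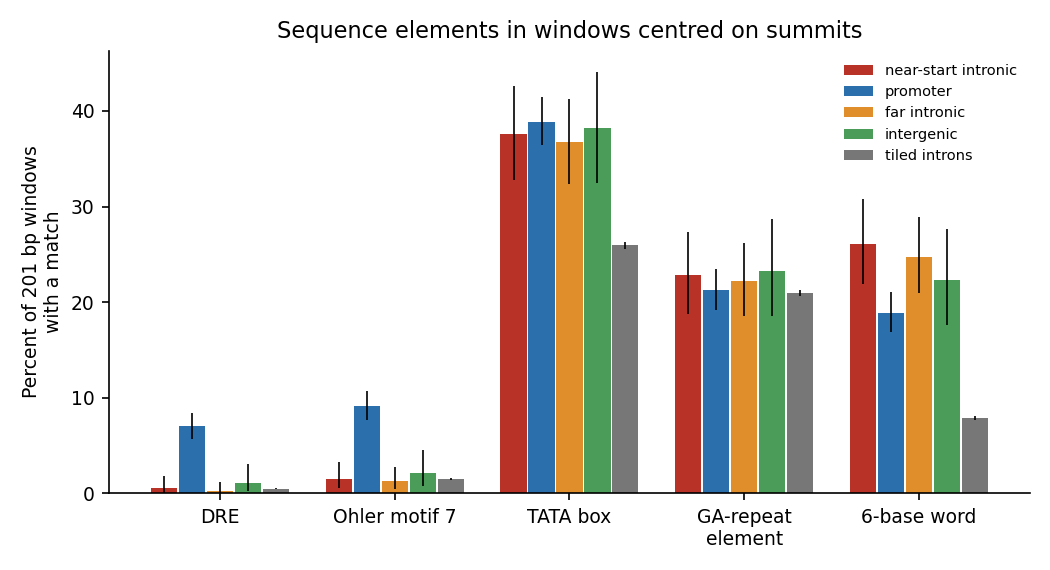
Percent of windows, 100 bp to either side of the summit, with a match (vertical axis) for 5 sequence elements, in near-start intronic, promoter, far intronic and intergenic peaks and in tiled introns; lines are exact 95% intervals. The DNA replication-related element (DRE) reaches 6.98% in promoter peaks and 0.508% in near-start intronic peaks, and the 6-base word reaches 26.1% in near-start intronic peaks against 7.87% in tiled introns.

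The word CACTGT was more frequent under the peaks than in introns at large. It was picked because it was frequent among 6-base words in the members' own windows, so its share in members is a description. It was in 103 members (26.1%, interval 21.9 to 30.8), against 18.9% of promoter peaks, 7.87% of tiled windows and 21.6% of all pooled peaks. In peaks that played no part in the choice, it was in 24.7% of far intronic and 22.3% of intergenic windows. The longer CACTGTA, which contains it, was in 48 members (12.2%), against 12.1% of far intronic, 9.89% of intergenic and 6.05% of promoter peaks and 2.1% of tiled windows. The share with the shorter word CACTGT was 29.6% in the 98 strongest members and 23.5% in the 98 weakest. Below the list's threshold, the 394 strongest near-start intronic summits of the pooled ranked list held CACTGT in 19.3% (15.5 to 23.5) and the 394 weakest in 10.4%.

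The word lay more often to the side of the summit than under it. Copies within 20 bp of the summit numbered 0.698 per kb in members, copies 40 to 100 bp away 2.16 per kb, and copies 200 to 300 bp away 0.457 per kb. In promoter peaks these values were 0.516, 1.37 and 0.441, and in far intronic peaks 0.476, 2.41 and 0.433. Tiled windows were flat at 0.402, 0.434 and 0.419.

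Read along the word, the side was mostly the same at 40 to 100 bp. This zone and the side were not planned, and the word came from the members themselves. Farther out the side was less uniform. In members the 20 bp bin centred on 110 bp held 28 copies with the summit on the 5′ side and 9 on the other. The bin centred on 130 bp held 14 and 6. Of 101 copies of CACTGT 40 to 100 bp from a member's summit, 90 had the summit on the 5′ side of the word and 11 on its 3′ side (89.1%, interval 81.3 to 94.4). In promoter peaks 172 of 230 copies were placed so (74.8%), in far intronic peaks 111 of 134 (82.8%), in intergenic peaks 42 of 50 (84%) and in tiled windows 1381 of 2673 (51.7%). For CACTGTA it was 42 of 42 copies in members (100%, interval 91.6 to 100), 51 of 58 in far intronic peaks (87.9%), 18 of 21 in intergenic peaks (85.7%), 53 of 69 in promoter peaks (76.8%) and 368 of 683 in tiled windows (53.9%). Near-start intronic summits in the thresholded list of replicate 1 gave 53 of 58 copies of CACTGT (91.4%) and 24 of 25 of CACTGTA. Those in the list of replicate 2 gave 78 of 89 (87.6%) and 41 of 42. Of these summits 86.9% and 60.7% were in both replicate lists, so the counts are not a separate repeat. By gene strand, 50 of the 101 copies in members were on the sense strand of the nearest gene.

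**Figure D5:**
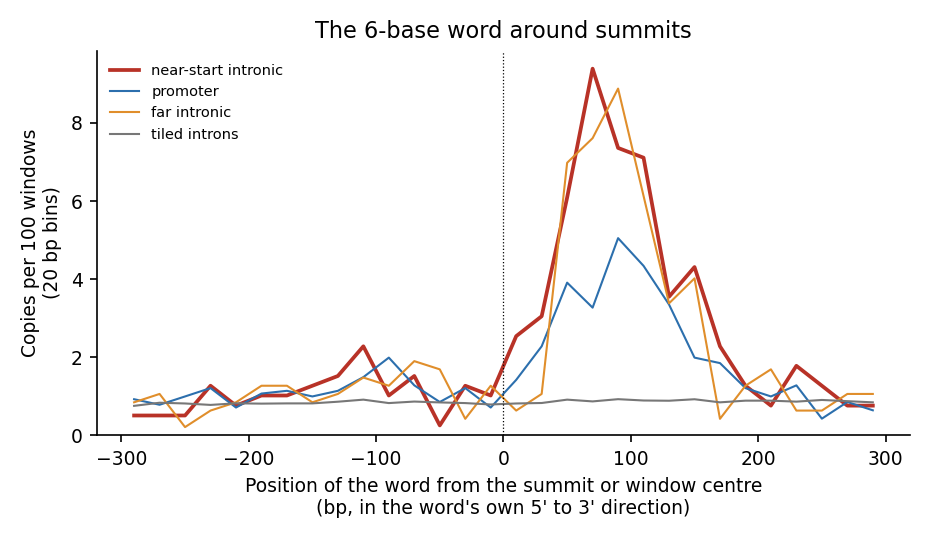
Copies of the 6-base word per 100 windows in bins of 20 bp (vertical axis) by position from the summit or window centre in bp, read along the word so that positive values have the summit on the 5′ side of the word, for near-start intronic, promoter and far intronic peaks and tiled introns. The line of near-start intronic peaks reaches 9.39 copies at 70 bp on the positive side, has 1.52 at 70 bp on the other side, and tiled introns are flat.

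At the edges of the rule, Pcyt1 (502 bp, signal 54.8) and, 1 bp closer, Ogdh (88.7) were just inside the near bound, and ph-p (497 bp, 1046.5) and mats (498 bp, 103.0) just outside it. At the far bound RhoGAP18B (1999 bp, 111.9) and fru (2000 bp, 78.7) were inside, and Dif (2004 bp, 97.5) and 14-3-3epsilon (2010 bp, 65.2) outside. The very strong peak in ph-p, 497 bp from a start, thus counts as a promoter peak, while the weaker peak of 100.3 in the same gene is a member.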

How the data were processed

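The deposited files were peak lists in genome coordinates of dm6, per the labels. The samples were 2 biological replicates of 1 group, with sonicated fragments of 200 to 800 bp. A control experiment was not analysed, and the aligner and peak caller were not given in the sources used here. The authors deposited for each replicate a relaxed ranked list and a thresholded list by irreproducible discovery rate (IDR), and for pooled reads ranked, conservative and larger thresholded lists. The peak signal is the authors' value (scale not stated), which was used to describe and rank peaks. The authors' deposited −log10 of the global IDR showed that all 394 members had an IDR of 0.01 or less. Left unused were 4 signal columns of the pooled ranked lists, whose inputs no header names. No read counts were given, so the depth is unknown.

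Here the summits were placed with Ensembl release 115, transposable elements left out, and sequence came from the RefSeq assembly of release 6 of the genome. Replicate values were those of the overlapping peak (1 bp or more) in each relaxed list. Tiled intron windows were positions at every 200 bp that met the same rule. Of 13 motifs planned, the text gives those a result turns on; CACTGT and CACTGTA were added after words in members' windows had been counted. Shares have exact (Clopper-Pearson) 95% intervals, and those of medians come from order statistics; they cover counting error only. No test was run, since there was 1 group and peaks are not replicates. The members and lists were chosen with earlier results of these data known. Differences between classes of peaks and from tiled windows were not tested. Genes named were the 20 strongest members, hosts with 3 or more members, up to 4 members of each of 9 lists, and the peaks at the bounds; others were chosen after their values were seen. One of the strongest members is not reported here by name. The functions were tested on simulated peaks. Tools were scipy 1.17.1, pandas 2.3.3, matplotlib 3.10.9 and numpy 2.4.6 under Python 3.11.15. Alternatives were the conservative list, each replicate alone, other windows, overlap rules, start sets and annotations.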

Additional observations from a re-analysis of the deposited data

Results flagged for a closer look

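In the pooled ranked list, 17 near-start intronic summits had a global IDR of 0.01 or less and yet were absent from the thresholded list, and so were not among the 394. They are signal outside the list that the members come from. The strongest was nearest to cbt, a zinc-finger transcription factor gene, with 677.3 in replicate 1, 860.7 in replicate 2 and 1486.8 pooled, 1405 bp from a start, which would have placed it next to CG11050. A summit in Lk6, a protein kinase gene, had 364.8 in replicate 1, 451.5 in replicate 2 and 811.3 pooled. Kdm2 (218.2), CG1943 (199.7), crp (127.2) and jumu (121.3) followed. None of the 17 was in the thresholded list of either replicate.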

How the results depend on the processing

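Of the 50 alternatives, 20 moved a value. No paired analysis was possible because there was 1 group. The conservative list gave 53% in both replicate lists, a median signal of 104 and a promoter summit at 13.5% of nearest starts. With each replicate's list alone there were 199 to 290 peaks, 60.7 to 86.9% in both lists and 85.5 to 96.5% in the conservative list. Such a peak is in its own list by construction, so its share in both lists is not comparable with that of the members. The median signal was 63.1 to 67.2, in that replicate's own values and not in pooled signal. The log2 ratio was 0.09 for peaks from the list of replicate 1 and 0.29 for those from replicate 2. Each of these lists was itself chosen on the data of 1 replicate. A promoter summit was at 13.1 to 15.2% of nearest starts, and TATCGATA was in 0 to 0.69%. The range up to 1000 bp held 209 peaks and the range beyond it 185. GAGAG was in 9.14% of members within 50 bp and 35% within 150 bp, against 11.2% and 29.7% of tiled windows, so the sign of that difference depends on the window. CACTGT was in 8.88% and 35.3%, against 3.87% and 11.6%. A promoter window of 250 bp gave a promoter summit at 11.9% of nearest starts, and the pooled ranked list 66.2%, against 54.2% of all starts. RefSeq's annotation gave the same 394 peaks. Starts of all genes gave 408, and adding the summits absent from the thresholded list gave 411. The unknown depth limits what the weakest members show, and leaving out a replicate changes the list as well as the depth; the cause of each shift was not tested.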

Other observations

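The hosts CHES-1-like and Tlk had peaks around several starts. The 5 peaks of CHES-1-like lay 659 to 1995 bp from the nearest start and were both upstream and downstream of it. In Tlk the strongest peak was 1596 bp upstream of a start, with 120.7 in replicate 1 and 129.4 in replicate 2. The 7-base word was preceded by the letters AG, with 4 bases between, in 20 of 48 members that held it, against 16 of 57 far intronic, 10 of 28 intergenic and 14 of 85 promoter peaks and 167 of 1071 tiled windows; this spacing was noticed in the members and was not tested.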
